A study of Mus musculus with 6 samples.

Results

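The epidermal growth factor (EGF) receptor family and its ligands were represented on the arrays by 12 probes of 10 genes: the receptors Egfr, Erbb2 and Erbb3 and the ligands Hbegf, Areg, Ereg, Tgfa, Btc, Epgn and Nrg1. The members were chosen by name, and every probe whose transcript accession maps to one of them was taken, 12 of 39429 probes and 10 of 20659 named genes. Gene expression had been measured on 6 Agilent whole-genome mouse arrays labelled with Cy3. For DDC injury, 3 arrays were hybridised with RNA of cells sorted as CD63+ from adult mouse livers injured with DDC, a compound that disturbs haem synthesis and damages bile ducts. For no injury, 3 arrays were hybridised with RNA of CD63+ cells from uninjured adult livers. The labels give no strain, age or sex for either group. Both groups had been cultured after sorting in a medium with 10 ng/ml EGF, 10 ng/ml HGF and 10% serum, so a ligand of Egfr was present in every culture. Some cultures also received VEGF and bFGF, but their numbered names match no sample title, so which arrays they concern is not known. The design text calls the 6 samples cell lines, and nothing says that replicates came from separate animals, so p-values measure only the spread between these samples.

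ErbB receptors are membrane tyrosine kinases that pair on binding their ligands and signal through the Ras-ERK and PI3K-AKT routes. Egfr binds EGF, Tgfa, Areg, Ereg, Btc, Hbegf and Epgn, Erbb3 binds neuregulins such as Nrg1 and has little kinase activity of its own, and Erbb2 has no known ligand and acts as a partner of the others. The ligands are made as membrane proteins and released by proteases of the ADAM class. In the liver, the pathway is known for its part in the growth of hepatocytes after loss of tissue.

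The 4 ligand genes Epgn, Ereg, Areg and Btc follow each other in this order on chromosome 5 in the RefSeq annotation of GRCm38.p6, with no other protein-coding gene between them. RefSeq promoter sequences, from 250 bases before to 50 bases after the start of the gene, were examined for 6 of the 10 members. None was held for Ereg, Erbb3 and Nrg1, and Hbegf was left out. The sequences of Areg, Epgn and Btc are shown because the values of these neighbours below are not alike, though a difference between them was not tested. That of Egfr is shown because its probes gave different values. Each is given 5′ to 3′ for GRCm38.p6. Capitals mark a cAMP response element (TGACGTCA), a TATA box (TATAAA), a GC box (GGGCGG) or an AP-1 site (TGACTCA), each searched on both strands.
Areg (chr5:91139349-91139648, plus strand): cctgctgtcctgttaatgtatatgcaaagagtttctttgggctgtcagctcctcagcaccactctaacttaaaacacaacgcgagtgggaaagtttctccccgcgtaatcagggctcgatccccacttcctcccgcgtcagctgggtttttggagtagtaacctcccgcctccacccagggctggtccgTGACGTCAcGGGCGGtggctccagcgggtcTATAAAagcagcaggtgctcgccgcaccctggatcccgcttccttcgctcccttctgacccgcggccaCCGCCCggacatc
Epgn (chr5:91027267-91027566, plus strand): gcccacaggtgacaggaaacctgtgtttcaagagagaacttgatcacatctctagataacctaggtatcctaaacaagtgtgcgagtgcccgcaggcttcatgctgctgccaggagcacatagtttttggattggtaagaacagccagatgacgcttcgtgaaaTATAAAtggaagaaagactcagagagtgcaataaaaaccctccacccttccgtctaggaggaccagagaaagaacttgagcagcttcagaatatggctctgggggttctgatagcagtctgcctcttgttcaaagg
Btc (chr5:91402945-91403244, minus strand): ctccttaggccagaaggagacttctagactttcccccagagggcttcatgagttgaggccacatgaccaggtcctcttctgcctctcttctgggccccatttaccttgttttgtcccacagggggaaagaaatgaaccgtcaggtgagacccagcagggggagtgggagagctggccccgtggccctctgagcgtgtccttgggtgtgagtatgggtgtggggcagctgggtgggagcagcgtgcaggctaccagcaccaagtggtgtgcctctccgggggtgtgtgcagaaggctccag
Egfr (chr11:16751953-16752252, plus strand): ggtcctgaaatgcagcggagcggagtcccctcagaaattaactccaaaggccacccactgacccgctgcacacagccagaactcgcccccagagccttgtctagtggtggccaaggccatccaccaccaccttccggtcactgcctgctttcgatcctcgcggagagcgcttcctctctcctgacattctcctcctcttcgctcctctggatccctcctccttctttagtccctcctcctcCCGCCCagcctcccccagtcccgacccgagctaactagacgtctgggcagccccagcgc
The Areg window held 1 cAMP response element, which starts 61 bases before the start of the gene, and 1 TATA box 31 bases before it. It also held 2 GC boxes. Of 32851 promoter windows of this length, 1.79% held the cAMP response element, 13.6% the TATA box, 35.7% the GC box and 5.2% the AP-1 site. The Epgn window held 1 TATA box, the Egfr window 1 GC box, and the Btc window none of the 4 motifs. A match describes these letters only.

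Signals are given on a log2 scale relative to the 75th percentile of the processed signals of each array, so 0 is the 75th percentile of the array. A probe's level can be compared between arrays but not with that of another probe. The 75th percentile lay between 1441 and 2271 intensity units in the DDC injury arrays and between 2062 and 2203 in the no-injury arrays, between 65% and 74.8% of spots were well above background, and no spot was saturated. The difference between no-injury replicates 1 and 3 was within the noise of repeated spots (chi-square test, p = 0.549). The test covered 180 probes that have 10 spots each and a signal above -2 on every array, so dimmer probes were not checked. Among dimmer genes, Ptprc was at -6.55 in replicate 1 and -4.43 in replicate 3 and Vwf at -3.84 and -1.8, while Adgre1 was at -4.16 and -4.14. On the test of the brighter probes, these arrays were averaged and counted as 1 sample, leaving 3 DDC injury samples and 2 no-injury samples. In the same test the difference between DDC injury arrays spread 3.03 to 5.51 times as widely as that noise, and that between the other pairs of no-injury arrays 1.47 and 1.78 times. The scan of DDC injury replicate 1 fell on another day than the rest, and each of the 3 scans held 1 group only, so scan and group cannot be told apart.

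Markers of the cell types that such cultures could hold differed between the groups in several lists. Of 9 epithelial markers, all were well above background in both groups, and of 8 tested none rose, 3 fell and 5 did not pass. Cd63 was at 3.65, 4.07 and 3.70 in DDC injury arrays and 3.94, 3.88 and 3.95 in no-injury arrays. Epcam (-2.58), Sox9 (-1.57) and Cdh1 (-0.97) fell, while Krt18 (0.44), Krt19 (0.37), Krt7 (0.16) and Spp1 (-0.25) did not pass. Of 5 tested mesothelial markers 3 fell, with a median difference of -3.30. Lrrn4, also on this list, was too dim to be tested and went the other way. It was at -7.02, -6.93 and -6.77 in DDC injury arrays (well above background on 2), against -9.35, -9.82 and -8.46 in no-injury arrays (on 0). Upk1b differed by -7.73 (limma adjusted p = 0.00107) and Wt1 by -3.30, Upk3b was called lower but was not well above background on any DDC injury array, and Msln (0.15) and Gpm6a (-5.02, limma adjusted p = 0.0572) did not pass. Of 8 hepatocyte markers 3 fell and 2 rose, with a median of -1.34. Alb (-6.14, limma adjusted p = 0.00659) and Ttr (-3.94) fell, and Apoa1 was called lower and was not well above background on any DDC injury array. Afp (2.86, limma adjusted p = 0.00483) and Apob (0.67) rose. The summed levels of these lists, which their brightest genes set, were 129 to 141 times the 75th percentile in DDC injury arrays and 137 to 139 times in no-injury arrays for epithelial markers. For mesothelial markers they were 22.4 to 27.9 times in DDC injury arrays and 25.9 to 28.2 times in no-injury arrays, and for hepatocyte markers 38.3 to 47.4 times in DDC injury arrays and 45.9 to 51 times in no-injury arrays. All 5 proliferation markers rose, with a summed level of 32 to 33.2 times in DDC injury arrays and 2.45 to 2.54 times in no-injury arrays. Of 6 leukocyte markers, all well above background in both groups, Itgam fell and 5 did not pass, with a summed level of 0.256 to 0.57 times in DDC injury arrays and 1.65 to 2.01 times in no-injury arrays. No stellate cell or fibroblast marker (5 tested) and no endothelial marker (6 tested) passed, and Des and Rgs5 were well above background on no array. The summed level of the 9 stellate cell and fibroblast markers was 0.156 to 1.06 times in DDC injury arrays and 0.367 to 0.514 times in no-injury arrays, and that of the 7 endothelial markers 0.171 to 0.595 times in DDC injury arrays and 0.54 to 0.805 times in no-injury arrays. Fewer cells of a type and less RNA per cell cannot be told apart in such bulk samples, and the part of these differences in the results below was not tested.

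Of the 12 probes, 11 gave a signal well above background on every array and Erbb3 did so on 5 of 6, and all entered the test, a limma fit across 27431 probes with Benjamini-Hochberg adjustment and a threshold of 0.05. Of the family, 3 probes rose (2 of Egfr, 1 of Ereg), 1 fell (Erbb3) and 8 did not pass. The called share of 33.3% is close to that of all probes tested, of which 29.3% were called, 15.5% higher and 13.8% lower. The median difference was 0.17 over the 12 probes and -0.10 over all probes tested. The DDC injury arrays lay wholly above or wholly below the no-injury arrays in 8 of 12 probes (66.7%), against 61% of all probes with a value on every array. The plot of signals by array shows each probe.

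**Figure D1:**
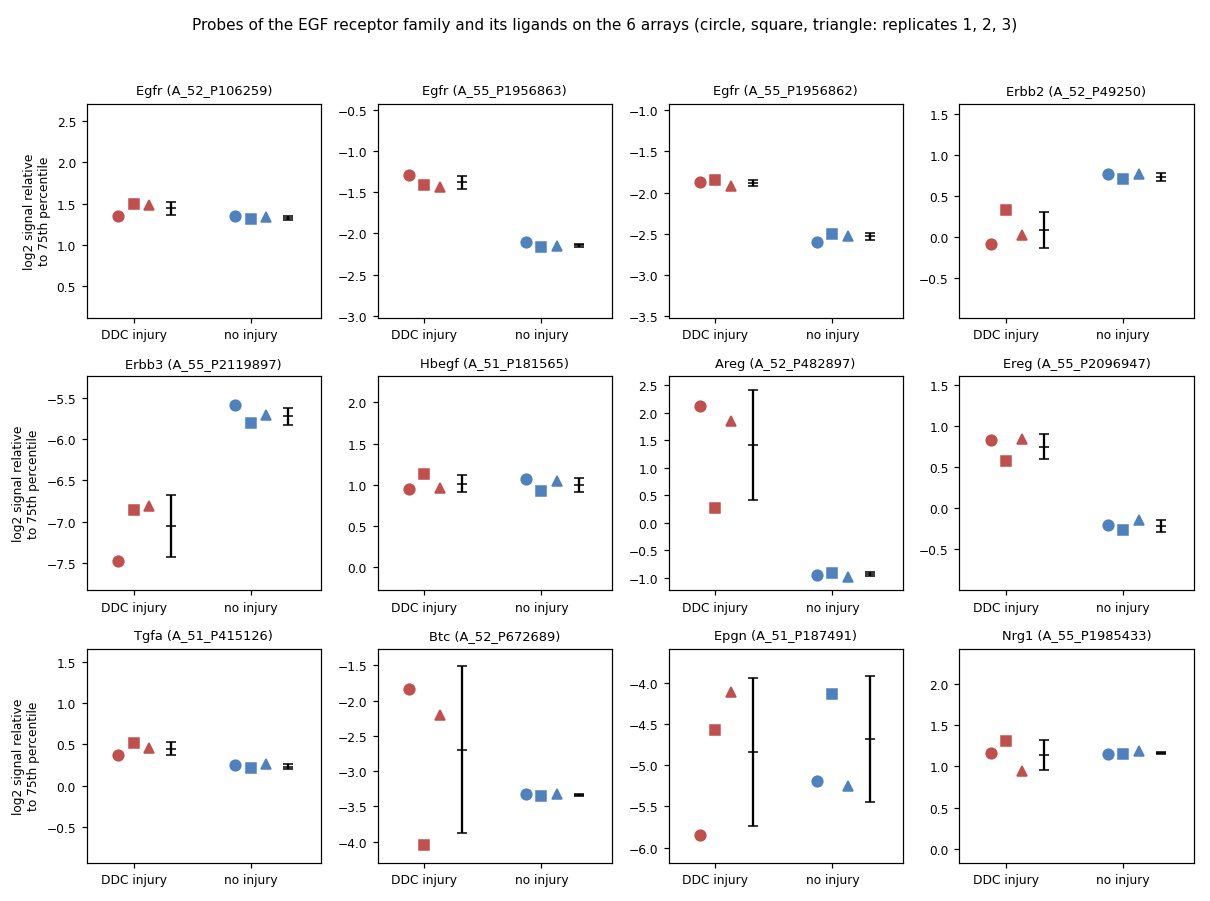
Log2 signal relative to the array's 75th percentile (y axis, each panel with its own range) of 12 probes on 3 DDC injury arrays (red, left) and 3 no-injury arrays (blue, right). Circles, squares and triangles are replicates 1, 2 and 3, and black bars give the mean ± SD over 3 DDC injury and 2 no-injury samples, no-injury replicates 1 and 3 counted as 1. Areg and Btc spread widely over the DDC injury arrays, with replicate 2 lowest, while their no-injury arrays lie within 0.06 of each other.

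Among the receptors, Egfr gave different values by probe. The 2 probes of transcript NM_007912 rose. Probe A_55_P1956863 was at -1.29, -1.41 and -1.44 in DDC injury arrays, against -2.11, -2.16 and -2.15 in no-injury arrays. The rise was 0.76 ± 0.11 log2 units (SE over 3 DDC injury and 2 no-injury samples, 1.7-fold, limma adjusted p = 0.013). Probe A_55_P1956862 was at -1.87, -1.85 and -1.92 in DDC injury arrays, against -2.60, -2.50 and -2.53 in no-injury arrays, a rise of 0.65 ± 0.10 (limma adjusted p = 0.016). For both, the 3 DDC injury arrays lay above every no-injury array by several times the spread within either group. The third probe, A_52_P106259 of transcript NM_207655, was at 1.35, 1.49 and 1.48 in DDC injury arrays, against 1.35, 1.31 and 1.34 in no-injury arrays. It was printed 10 times on each array, with an SD between spots of 0.025 to 0.062, and differed by 0.11 (95% interval -0.18 to 0.41, limma adjusted p = 0.498).

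The log ratio of A_55_P1956863 to A_52_P106259 within each array does not depend on the scaling. It was -2.64, -2.90 and -2.92 in DDC injury arrays, against -3.45, -3.47 and -3.49 in no-injury arrays, higher in 3 of 3 DDC injury arrays than in any no-injury array. The difference of 0.65 gave p = 0.2 in a two-sided exact permutation test, the smallest that 3 against 2 samples allow. With normexp background correction the difference was 0.42 and in the authors' deposited values 0.56. For A_55_P1956862 the 3 differences were 0.54, 0.43 and 0.61. The ratio was examined after the values of the probes had been seen.

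Erbb2, the partner receptor without a known ligand, was lower in every DDC injury array. Its probe, also printed 10 times, was at -0.09, 0.33 and 0.02 in DDC injury arrays, against 0.76, 0.70 and 0.76 in no-injury arrays. The SD between spots was 0.025 to 0.070, so the spread of the DDC injury arrays was wider than that of the spots. The difference of -0.64 ± 0.17 (SE, 95% interval -1.09 to -0.19) did not pass (limma adjusted p = 0.0532). Without DDC injury replicate 2 it was -0.76 (limma adjusted p = 0.015).

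Erbb3, the neuregulin receptor, was dim in both groups. It was at -7.48, -6.86 and -6.81 in DDC injury arrays, or 12.7, 12.4 and 14 intensity units, against -5.59, -5.80 and -5.71 in no-injury arrays, or 42.7, 39.7 and 40.8 units. It was well above background on 2 of 3 DDC injury arrays and on 3 of 3 no-injury arrays. The difference was -1.33 ± 0.26 log2 units (SE, 2.51-fold lower, limma adjusted p = 0.0252), and the groups did not overlap. With normexp background correction and an added offset of 50 intensity units, the difference was -0.14 (limma adjusted p = 0.74). An offset above the signals of a probe shrinks its log2 difference by itself. The parts of the offset and of the background removal in this value cannot be told apart. Without DDC injury replicate 3 it was -1.45 (limma adjusted p = 0.0536).

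Among the ligands, Ereg (epiregulin, which binds Egfr and Erbb4) rose. It was at 0.83, 0.57 and 0.84 in DDC injury arrays, against -0.20, -0.27 and -0.14 in no-injury arrays. The rise was 0.97 ± 0.14 log2 units (SE, 1.95-fold, limma adjusted p = 0.0129), larger than the range within either group. Its neighbour Areg (amphiregulin, an Egfr ligand) had the largest difference of the family but also a wide spread. It was at 2.12, 0.27 and 1.85 in DDC injury arrays, against -0.95, -0.92 and -0.98 in no-injury arrays. Every DDC injury array lay above every no-injury array, replicate 2 by the least. The difference of 2.35 ± 0.63 (SE, 5.11-fold, 95% interval 0.68 to 4.03) did not pass (limma adjusted p = 0.0545). Without DDC injury replicate 2 it was 2.93 (limma adjusted p = 0.00517).

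Btc (betacellulin, which binds Egfr and Erbb4) had the same replicate out of step. It was at -1.83, -4.05 and -2.21 in DDC injury arrays, against -3.33, -3.35 and -3.33 in no-injury arrays. Replicates 1 and 3 lay above the no-injury arrays and replicate 2 below them, and the difference of 0.64 did not pass (95% interval -1.33 to 2.62, limma adjusted p = 0.561). Without DDC injury replicate 2 it was 1.32 (limma adjusted p = 0.0189). Epgn (epigen, a weak Egfr ligand), the first gene of the chromosome 5 group, was at -5.85, -4.57 and -4.11 in DDC injury arrays, against -5.19, -4.14 and -5.25 in no-injury arrays. The groups overlapped, and the difference was -0.16 (95% interval -1.91 to 1.59, limma adjusted p = 0.874). Of the 4 neighbours, 1 passed the test and the differences ranged from -0.16 to 2.35. Whether these differences differ from each other was not tested.

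The other 3 ligands did not pass the test. Hbegf (heparin-binding EGF-like growth factor) was at 0.95, 1.13 and 0.96 in DDC injury arrays, against 1.07, 0.93 and 1.04 in no-injury arrays (difference 0.02, 95% interval -0.31 to 0.35, limma adjusted p = 0.917). Tgfa (transforming growth factor alpha) was at 0.37, 0.52 and 0.45 in DDC injury arrays, against 0.25, 0.21 and 0.26 in no-injury arrays. The Tgfa groups did not overlap, but the difference of 0.22 did not pass (95% interval -0.08 to 0.51, limma adjusted p = 0.212). Nrg1 (neuregulin 1, an Erbb3 and Erbb4 ligand) was at 1.16, 1.31 and 0.94 in DDC injury arrays, against 1.15, 1.15 and 1.19 in no-injury arrays (difference -0.03, 95% interval -0.43 to 0.38, limma adjusted p = 0.916). A change within these intervals could not be told from none. The plot of differences sets the 12 intervals side by side.

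**Figure D2:**
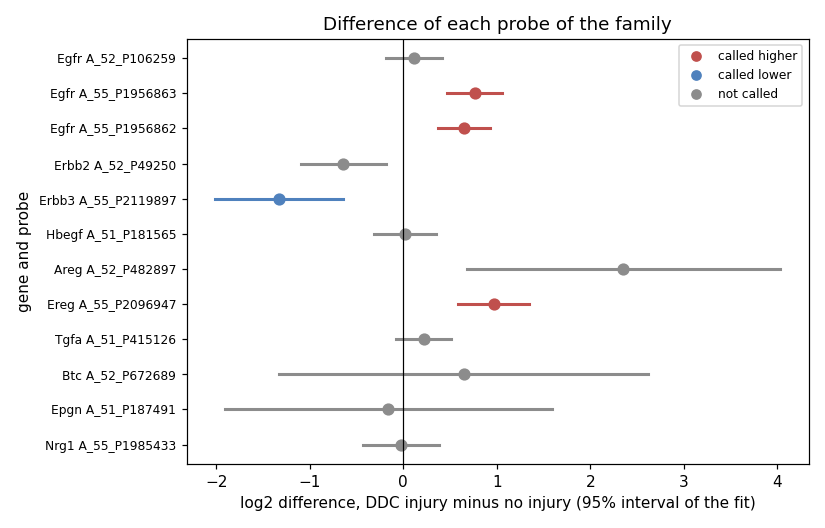
Log2 difference of each probe, DDC injury minus no injury (x axis), with the 95% interval of the limma fit, for 12 probes (y axis). Red points were called higher, blue lower, and grey points did not pass. The 2 called Egfr probes and Ereg lie above 0 and Erbb3 below it, and the widest intervals are those of Btc, Epgn and Areg.

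Areg and Btc had the widest ranges over the DDC injury arrays of any member. Over all probes tested, the median range over the 3 DDC injury arrays was 0.51 and over the 3 no-injury arrays 0.127. The range of Btc was 2.22, a value reached by 8.82% of tested probes, and that of Areg 1.86, reached by 12.8%. Over the no-injury arrays Btc ranged by 0.02 and Areg by 0.06. DDC injury replicate 2 had the lowest signal of the 3 for both ligands. Of 20 genes of ERK feedback and early ERK targets, 6 were at least 0.5 lower in replicate 2 than in both other DDC injury arrays (Dusp4, Dusp5, Etv5, Egr1, Fos and Myc) and 1 was at least 0.5 higher, against 8.42% and 6.11% of all genes tested. Etv5, an ETS factor induced by ERK, was at 2.04, 0.31 and 1.86 in the DDC injury arrays and Egr1, an immediate-early factor, at 1.49, -0.27 and 1.5. By the same step in the lists described below, 0 of 3 other ErbB ligands were lower and 1 higher, and 0 of 9 processing genes lower and 1 higher. Of 15 inhibitors and turnover genes 1 was lower and 2 higher, of 18 adaptors 0 and 1, and of 16 kinases 0 and 0. What set replicate 2 apart was not tested. This comparison and its step of 0.5 were chosen after the values were seen.

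By the measure of likeness over the 6 arrays, the root mean square difference of centred values, the genes closest to Egfr probe A_52_P106259 among 12438 named genes were Gpx4 (0.020), Tor1aip2 (0.025), Fam89b (0.031), Rbm26 (0.032) and Kctd14 (0.032). This Egfr probe differed by only 0.11, and by this measure any gene that hardly differed over the arrays lies close to it. Closeness to it therefore does not show shared regulation. The genes closest to Erbb3, the called member with the largest absolute difference, were H2-Q6 (0.068), Alox12b (0.084), Mab21l2 (0.088), Grk5 (0.088) and Acad10 (0.090), which differed by -1.22 to -1.47.

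Of the ErbB ligands and receptor outside the 10 members, Nrg4 and Egf fell and Nrg2 rose. Nrg4, an Erbb4 ligand, was at -1.39, -1.32 and -1.60 in DDC injury arrays, against -0.03, -0.03 and -0.02 in no-injury arrays. It fell by 1.41 ± 0.13 (SE, limma adjusted p = 0.0053), and its other probe also fell. Egf fell by 1.21 ± 0.19 (limma adjusted p = 0.0152) in cultures that were supplied with EGF protein. Nrg2, a neuregulin of Erbb3 and Erbb4, rose by 1.03 ± 0.26 (limma adjusted p = 0.0468). Its second probe was not called. On all 6 arrays Erbb4 and Nrg3 failed to reach a signal well above background, so no level of the fourth receptor was measured here.

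The downstream genes were read from 5 further lists, with each gene represented by its brightest probe. Of all genes tested in this way, 16.2% were called higher and 14.6% lower. Over the 6 lists together, 14 of 81 tested genes rose and 11 fell, 30.9% in all, with a median difference of 0.05 against -0.07 over all genes. In ligand and receptor processing, 1 of 9 tested genes rose and 1 fell. Adam12, a protease that can shed Hbegf, was at -2.07, -2.33 and -2.03 in DDC injury arrays, against -3.75, -3.82 and -3.80 in no-injury arrays, and rose by 1.65 ± 0.14 (SE, limma adjusted p = 0.00445). Psen2, of the gamma-secretase complex, fell by 0.52 (limma adjusted p = 0.0356). The main ligand sheddase Adam17 spread over -3.10, -1.04 and -1.41 in DDC injury arrays, against -2.07, -2.17 and -2.13 in no-injury arrays, and did not pass (limma adjusted p = 0.786).

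Among inhibitors and turnover genes, 2 of 15 rose and 4 fell, with a median of -0.19. Errfi1, an inhibitor that binds the kinase domain of Egfr, was at 3.34, 3.18 and 3.35 in DDC injury arrays, against 3.93, 3.91 and 3.95 in no-injury arrays, and fell by 0.63 ± 0.12 (SE, limma adjusted p = 0.0217). The phosphatases Ptprj and Ptpn1, which act on receptor tyrosine kinases, fell by 1.26 and 0.70. Sh3kbp1, an adaptor of Cbl in receptor endocytosis, rose by 3.21 ± 0.34 (limma adjusted p = 0.00637) and Socs4 by 0.95. Other probes of Ptprj (2 of them) and Sh3kbp1 (1) were called in the same direction, the other probe of Ptpn1 was not called, and Errfi1 and Socs4 had 1 probe each. Rnf41, a ligase that acts on Erbb3, had 1 probe called lower and 1 called higher.

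Of 18 adaptors and proximal enzymes none rose and 2 fell, Vav2 by 1.33 and the docking protein Gab1 by 0.64, and the list's median was -0.12. The central adaptor Shc1 was at 3.77, 3.80 and 3.78 in DDC injury arrays, against 3.74, 3.71 and 3.78 in no-injury arrays. Of 16 Ras-ERK and AKT kinases and regulators, Nras (0.74) and Map2k2 (0.67) rose and Mtor fell by 1.28, with a median of 0.16.

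The list with the highest median, 0.74, was that of ERK feedback and early target genes, in which 8 of 20 rose and 1 fell. Etv4, an ETS factor, was at 1.66, 1.45 and 1.57 in DDC injury arrays, against -1.72, -1.68 and -1.67 in no-injury arrays. It rose by 3.25 ± 0.12 (SE, 9.49-fold, limma adjusted p = 0.0011). Fosl1, an AP-1 subunit, rose by 3.17 ± 0.20 (8.98-fold, limma adjusted p = 0.00243) and the ERK phosphatase Dusp5 by 1.67 ± 0.32 (limma adjusted p = 0.0252). Jun, another AP-1 subunit, was at -2.10, -2.38 and -2.13 in DDC injury arrays, against -0.16, -0.25 and -0.28 in no-injury arrays, and fell by 1.97 ± 0.14 (limma adjusted p = 0.00308). The 11 other genes of the list did not pass and went both ways. Differences were below 0 for Fos (-1.19), Dusp6 (-0.70), Spry4 (-0.32), Spry2 (-0.24) and Spry1 (-0.14). They were above 0 for Etv5 (2.09), Dusp4 (1.06), Egr1 (0.90), Plaur (0.78), Ier3 (0.52) and Myc (0.19). The summed level of the proliferation markers, 32 to 33.2 against 2.45 to 2.54, differed along with this list, and its part in these counts was not tested. Without DDC injury replicate 2, 13 of the list rose and 3 fell, and without replicate 3, 4 rose and 1 fell. Counts over all probes, taken at another threshold and in both directions together, moved the same way. An unadjusted limma p under 0.05 was reached by 11634 probes in the reported setting, 13201 without replicate 2 and 9994 without replicate 3. Whether the list moved more than all probes was not tested. Counting the no-injury arrays together as 1 sample, fewer genes of the list passed, and so did fewer of all probes.

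**Figure D3:**
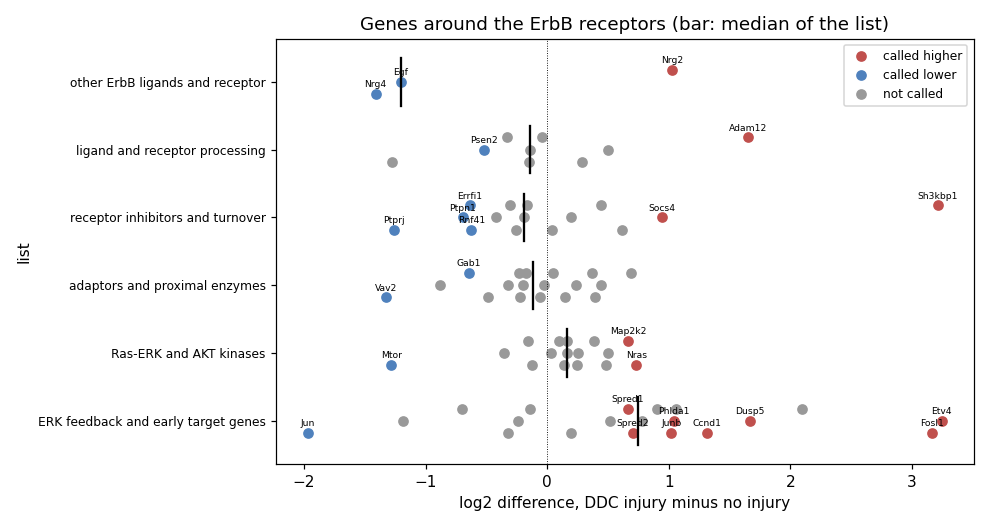
Log2 difference, DDC injury minus no injury (x axis), of 81 tested genes in 6 lists around the ErbB receptors (y axis), 1 point per gene. Red points were called higher and blue lower, both with names, and black bars give the list medians, from -1.21 for the other ligands to 0.74 for ERK feedback and early target genes.

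The calls in the family, like those over all probes, rest on how the no-injury arrays are counted. The numbers of calls over all probes are given in the closing section. In the reported setting, 6 of the 12 probes and 11634 of 27431 tested probes had an unadjusted limma p under 0.05. With all 6 arrays as separate samples, 4 probes rose and 2 fell, Areg (limma adjusted p = 0.0145) and Erbb2 (limma adjusted p = 0.0117) among them. An unadjusted limma p under 0.05 was then reached by 7 of the 12 and by 14328 of all probes. Counting the no-injury arrays together, or leaving out no-injury replicate 2, leaves 1 no-injury sample, which is assumed to vary like the DDC injury samples. Far fewer probes were then called, in the family and over all probes alike, as the closing section gives. Without DDC injury replicate 2, 5 rose and 2 fell, and 7 of the 12 and 13201 of all probes had an unadjusted limma p under 0.05. The plot of alternative settings shows that the differences of Egfr, Erbb2, Erbb3, Areg, Ereg, Tgfa and Btc kept their sign in all alternatives that gave a value.

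**Figure D4:**
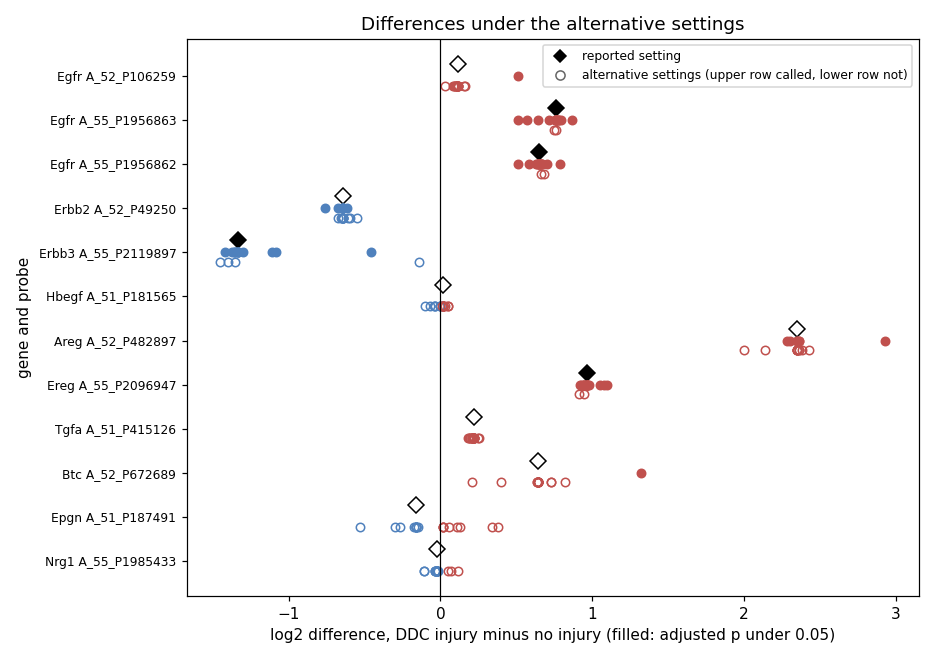
Log2 difference of 12 probes (y axis), DDC injury minus no injury (x axis), in the reported setting (black diamonds) and under up to 18 alternatives (circles, red above 0 and blue below, the upper row called and the lower row not). Filled symbols passed the adjusted threshold of 0.05. Where the probes of a gene were averaged, all Egfr probes share the same value. Ereg lies between 0.91 and 1.1 throughout, and Erbb3 between -1.45 and -0.14.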

How the data were processed

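In all, 6 samples were measured on 1-colour Agilent arrays of cultured mouse liver cells. Per the file headers, Feature Extraction 11.0.1.1 gave intensity values, of which the processed signal (background-subtracted and detrended within the array) and the median raw signal of spot and local background were used. The authors deposited a table of log2 values of the same arrays, which share their quantiles between arrays (column medians 6.921 to 6.927). The submitters' processing notes name limma without a version, and the starting column and background step are not given in the sources used here.

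Flagged spots were left out (2 spots of A_52_P106259, 2 of Erbb2 and 8 of Tgfa over the 6 arrays), repeated spots of a probe were averaged, and log2 of the processed signal, less log2 of its 75th percentile on that array, was the value of a probe. limma 3.58.1 under R 4.3.3 fitted each probe by lmFit and moderated its variance by eBayes (1.401 prior degrees of freedom), with two-sided tests. A probe was tested if well above background (for repeated spots, on at least 50% of them) on at least 3 of 6 arrays with at least 2 values per group. Probes were named through unversioned accessions in a RefSeq table of GRCm38.p6 (27234 named, 12195 unnamed). Coordinates that the arrays carry are of mm9 and are not printed. The brightest probe on average stood for each pathway gene, and up to 3 called genes each way were named per list. Adam17, Shc1, Rnf41 and the genes listed for DDC injury replicate 2 were named after their values were seen. So were the ERK feedback and early target genes that did not pass. The agreement of no-injury replicates 1 and 3 was tested with each probe's own spot variance. With a variance pooled over the 180 probes this chi-square test gave p = 0.0264. Counting both arrays as samples is among the alternatives.

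The members and lists were chosen with earlier results of these data known. Alternatives were other background corrections, scalings, filters, ways of counting arrays, blocks, and the omission of each array, and the fit was tested on simulated data. The normexp correction was used with an offset of 50 intensity units throughout. Precision is set by how few samples are independent.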

Additional observations from a re-analysis of the deposited data

How the results depend on the processing

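Of 213 values of the 12 probes under 18 alternatives, 168 kept their direction and side of the threshold, 16 passed only under the alternative, 10 passed only in the reported setting and 19 changed sign. Where the probes of a gene were averaged, all Egfr probes share the same value (0.509), which is counted for each of them. All sign changes were in Hbegf, Epgn and Nrg1, none of which passed anywhere. Hbegf differed by -3.68e-06 with 6 separate arrays, with the no-injury arrays averaged and with the replicate block, by -0.0359 with normexp, -0.0672 with quantile normalization and -0.104 in the authors' values. Epgn differed by 0.0168 in the first 3 of these settings, 0.0572 with normexp, 0.128 with quantile normalization and 0.108 in the authors' values. Nrg1 differed by 0.118 with normexp and 0.0472 in the authors' values. With 1 array left out, Hbegf ranged from -0.0405 to 0.0514, Epgn from -0.528 to 0.377 and Nrg1 from -0.111 to 0.0719. The cause was not tested.

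Of all probes, 8031 were called in the reported setting (4243 higher and 3788 lower). The count was 12139 with 6 separate arrays, 412 with the no-injury arrays averaged, 5046 with the scan as a random block (correlation 0.334), 5224 with 1 probe per gene and 5089 with probes averaged by gene, the last pair over fewer features. Leaving out 1 array gave 400 to 10257 (400 without no-injury replicate 2). Of the 12 family probes 4 were called, 0 with the no-injury arrays averaged, and 0 to 7 with 1 array left out (0 without no-injury replicate 2, 7 without DDC injury replicate 2). Areg and Erbb2 each passed in 7 of 18 alternatives, Ereg in 16, and Erbb3 in 13 of 17. The median difference of all probes was -0.10 here and 0.08 with normexp.

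The groups share replicate numbers. The deviations of same-numbered arrays correlated at 0.165, 0.082 and -0.007. DDC injury replicates 1 and 2 correlated best with their own number, and replicate 3 with no-injury replicate 2 (0.145). Deviations from the mean of so few arrays are tied to each other. These values therefore cannot decide whether the numbers pair the samples. With the replicate block over 6 separate arrays, 8560 probes were called, among them 5 of the family (Areg at an adjusted p of 0.0355 in limma).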
